A study of Arabidopsis thaliana with 35 samples.

Results

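SWEET genes encode membrane proteins that let sugars pass down their gradient, and 10 of them were followed through vernalization in Arabidopsis thaliana seedlings. They were chosen by gene identifier: SWEET1 (AT1G21460), SWEET2 (AT3G14770), SWEET4 (AT3G28007), SWEET6 (AT1G66770), SWEET11 (AT3G48740), SWEET12 (AT5G23660), SWEET13 (AT5G50800), SWEET15 (AT5G13170), SWEET16 (AT3G16690) and SWEET17 (AT4G15920). They are 10 of the 17 SWEET genes of the RefSeq gene table. The RNA table lists 18779 genes, and 9 of the 10 members are among them. After 10 d of cold SWEET1, SWEET4 and SWEET12 were raised and SWEET11 lowered. After 40 d SWEET4 and SWEET13 were raised and SWEET15, SWEET16 and SWEET17 lowered. The results for SWEET1, SWEET4, SWEET11 and SWEET15 were each lost under some of the alternatives given below. SWEET6 is not listed in the RNA table, and neither is any of the 7 other SWEET genes. RNA values are therefore given for 9 members and chromatin values for 10.

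SWEET proteins are uniporters, so they carry sugar in the direction of its concentration difference and need no proton gradient. In leaves, members of the sucrose-carrying branch release sucrose beside the phloem, from where proton symporters load it for export. Other members move glucose or fructose, some of them across the membrane of the vacuole, the main sugar store of the cell. Sugar levels in leaves are known to change when plants are moved to the cold. H3K27me3 is a histone mark of Polycomb repression, H3K4me3 marks the starts of transcribed genes, and H3K36me3 lies along the body of transcribed genes.

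The plants were Col-0 with a functional FRI allele, which makes flowering depend on vernalization, and all groups shared this genotype. Standard growth was at 22 °C in days of 16 h light. RNA groups were not vernalized (NV), kept in the cold for 1 h, 1 d, 10 d, 20 d or 40 d, or kept in the cold for 40 d and then returned to normal growth for 10 d (T10), each with 2 libraries. ChIP-seq of the 3 marks covered NV, 40 d and T10 with 2 libraries per mark and group. The study compared transcripts and marks across vernalization. NV was the only group without cold, so plant age and development cannot be told apart from cold. The labels give neither the cold temperature nor the age, and they do not say that replicates were separate cultures, so p-values measure only the spread between these libraries.

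The deposited RNA values are normalised read counts averaged over the 2 libraries of a group. Each average was split into the whole reads of both libraries, called the deeper and the shallower one, since the table carries no replicate numbers. The libraries held 2.38 to 19.9 M reads (M, 1000000) in the 18766 genes that split uniquely. Genes that did not split uniquely were few but held a large part of the signal, with values given under the processing. Across genes, the deeper NV library correlated more with the shallower 1 h library (0.9526) than with the other NV library (0.9375). The shallower NV library likewise correlated most with the deeper 1 h library (0.9579); genes are not independent replicates here. NV and 1 h libraries thus did not sort by group, and every comparison against NV shares these NV libraries. In whole seedlings, fewer cells of a type and less RNA per cell cannot be told apart. Nor can it be told whether a mark and a transcript of the same gene come from the same cells. Root markers summed to 38.1 and 29.9 at NV, to 1.20 and 1.49 at 40 d with 2 of 7 markers at 0, and to 11.7 and 11.8 at T10. Root markers were thus near 0 at 40 d in material labelled as seedling. How reads with several matches were assigned is not given in the sources used here, so reads of close pairs such as SWEET11 and SWEET12 or SWEET16 and SWEET17 may have been divided between them.

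A gene was called where limma gave an adjusted p under 0.05 over all 18766 genes. At 1 h, 0 of the 9 members rose and 0 fell, against 0.0799% and 0.00533% of all genes, and at an unadjusted p under 0.05 the limma test had 0 up and 1 down; limma without weights also called 0 in both directions. At 1 d, 0 rose and 1 fell, against 13.8% and 12.2% of all genes; 3 members were up at an unadjusted p under 0.05 by limma, and limma without weights called 1 up. At 10 d, 3 rose and 1 fell, against 13.2% and 14.5% of all genes. At 20 d, 2 rose and 2 fell, against 13.8% and 14% of all genes. At 40 d, 2 rose and 3 fell, against 16.5% and 18.3% of all genes. The median log2 change of the 9 members at 40 d was -0.21, beside -0.0017 over all genes.

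After the return, T10 against 40 d had 2 members up and 1 down, against 13.3% and 10.1% of all genes. T10 against NV had 1 up and 0 down, against 13.7% and 10.7% of all genes; 0 members were down at an unadjusted p under 0.05 by limma, and limma without weights called 0 in both directions. A comparison of 40 d with 10 d of cold, which does not use the NV libraries and was added after the data were seen, had 1 up and 2 down, against 4.82% and 5.8% of all genes. With both 1 h libraries left out, also an alternative added after the data were seen, no member call was lost in any comparison and the 40 d counts were 3 up and 4 down. That fit also called more of all genes at 40 d, 20.0% up and 22.3% down. Counts out of 9 members are too few to read against those shares, so the results below are those of single genes.

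**Figure D1:**
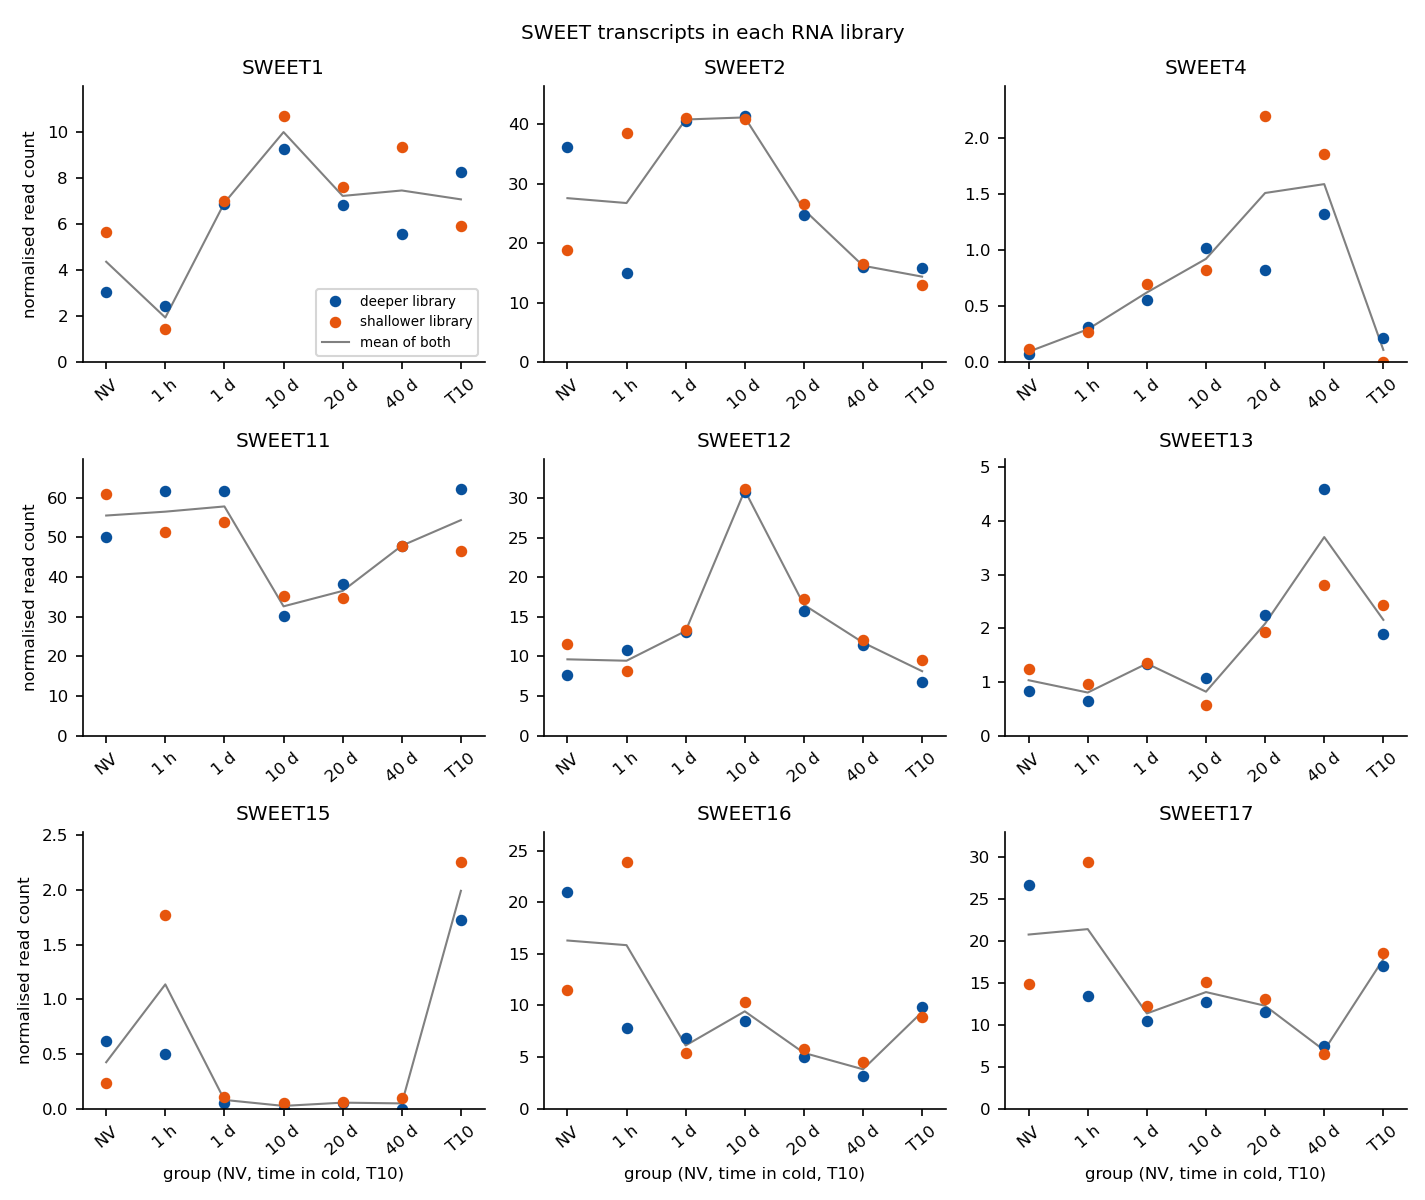
Normalised read counts of 9 SWEET transcripts (vertical axis, starting at 0) in NV, after 5 times in the cold and at T10 (horizontal axis). Points are the deeper and the shallower library of each group and lines join the means of both; SWEET12 peaks at 10 d with 30.8 and 31.2, SWEET13 and SWEET4 are highest at 40 d in their means, and SWEET15 has its highest mean at T10.

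The sucrose exporters of leaf phloem, SWEET11 and SWEET12, moved in opposite directions at 10 d. SWEET12 had 30.8 and 31.2 normalised counts after 10 d, against 7.66 and 11.6 at NV, and the groups did not overlap. The change was 1.73 on the log2 scale (SE 0.20, adjusted p 9.12e-05), and it stayed called with any 1 of the 14 libraries left out. SWEET11 had 30.1 and 35.1 after 10 d, against 50.2 and 60.8 at NV, with no overlap. It fell by 0.77 on the log2 scale (SE 0.18, adjusted p 0.00774). This SWEET11 call was lost without the deeper 10 d library (adjusted p 0.0859) and with library sizes taken from the recovered reads (adjusted p 0.0741).

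The rise of SWEET12 was passing. Its values were 13.1 and 13.3 at 1 d, 15.8 and 17.3 at 20 d, 11.5 and 12.1 at 40 d, and 6.73 and 9.54 at T10. Between 40 d and 10 d the log2 change was -1.40 (SE 0.19, adjusted p 0.00102), called with any 1 library left out. At 20 d against NV, SWEET12 rose by 0.82 (adjusted p 0.0120), a call lost on leaving out the deeper NV (0.117), deeper 20 d (0.0509) or shallower 20 d (0.0876) library. At 40 d and at T10 it did not differ from NV by the test.

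SWEET11 had 38.4 and 34.6 at 20 d, against 50.2 and 60.8 at NV, and fell by 0.60 on the log2 scale (adjusted p 0.0265). That call was lost without the shallower NV library (0.107), without the deeper (0.0827) or the shallower (0.161) 20 d library, and with library sizes taken from the recovered reads (0.149). By 40 d it stood at 47.9 in both libraries and at T10 at 62.3 and 46.5. Its log2 change against NV was -0.21 at 40 d (95% interval -0.60 to 0.18) and -0.00051 at T10 (-0.41 to 0.41). Markers of phloem companion and sieve cells summed to 135 and 144 at 10 d, against 88.6 and 88.7 at NV. Of these 5 markers 2 were called up and 0 down at 10 d, against 13.2% and 14.5% of all genes. The largest part of the sum was SUC2, at 104 on average at 10 d, against 63.6 at NV. SEOR1 averaged 7.75 at 10 d, against 7.90 at NV. At 1 d the sum was already 129 in both libraries, when SWEET12 had 13.1 and 13.3. The part of phloem cells in the changes of SWEET11 and SWEET12 was not tested.

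**Figure D2:**
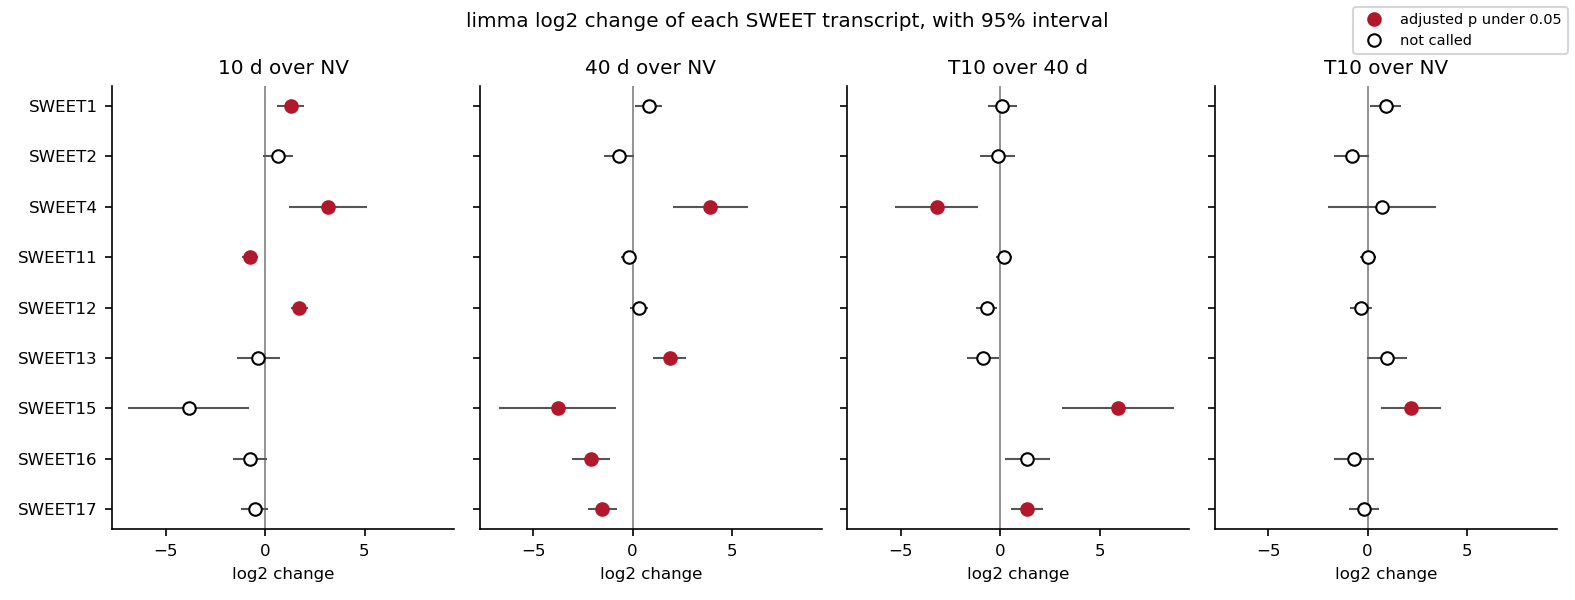
Log2 changes of 9 SWEET transcripts from limma (horizontal axis), with 95% intervals, in 4 comparisons that each give the first-named group over the second. Filled points passed an adjusted p under 0.05; at 10 d SWEET12 lies at 1.73 and SWEET11 at -0.77, and at T10 over 40 d SWEET15 lies at 5.93.

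SWEET11 carried the largest level per length of the family at NV, 40 d and T10. Divided by gene length, introns included, it averaged 23.5 ± 3.17 normalised counts per kb at NV, 20.2 ± 0.0209 at 40 d and 23.0 ± 4.72 at T10 (SD, n = 2 each). SWEET2 came next at these times with 11.6 ± 5.18, 6.85 ± 0.160 and 6.08 ± 0.836 per kb, and its libraries did not overlap with those of SWEET11. They did overlap with those of SWEET16 at NV and of SWEET17 at T10. At 10 d the order changed: SWEET2 had 17.4 ± 0.182, SWEET11 13.8 ± 1.51 and SWEET12 13.2 ± 0.125 per kb, and SWEET11 and SWEET12 overlapped. At NV the levels of SWEET16 (7.31 ± 3.01), SWEET17 (6.55 ± 2.63), SWEET12 (4.10 ± 1.19) and SWEET1 (2.52 ± 1.07) each overlapped with the next. SWEET13, SWEET15 and SWEET4 were lowest at NV, at 0.459 ± 0.128, 0.184 ± 0.116 and 0.0495 ± 0.0173 per kb.

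SWEET11 was also covered by the repressive mark throughout. H3K27me3 peaks covered 82.3 to 96.5% of the gene in all 6 libraries, and no H3K4me3 or H3K36me3 peak touched it. Of the 27444 protein-coding nuclear genes, 1821 had H3K27me3 in all 6 libraries and no H3K4me3 peak in any, and 357 of these (19.6%) are listed in the RNA table, beside 66.3% of all protein-coding genes. Among those 357 the median value over the 7 group means was 1.55, and SWEET11, at 48.7, ranked 5 from the highest. Its place was 6 when values were divided by gene length. SWEET13, the other member with both features, had 1.70 and ranked 168. Whether mark and transcript were in the same cells of the seedlings was not tested.

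A gene was taken as marked in a group where peaks covered at least 50% of it in both libraries. H3K27me3 marked 3 of the 10 members at NV (SWEET6, SWEET11 and SWEET13), against 11.8% of all genes. At 40 d it marked 2 (SWEET11 and SWEET13), against 13%. At T10 it marked 5 (SWEET6, SWEET11, SWEET12, SWEET13 and SWEET15), against 13.6%. Of the 7 other SWEET genes, it marked 3 at NV and 4 each at 40 d and T10. With 2 libraries against 2 an exact permutation test cannot go below p 0.333, so marks are described without a test.

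**Figure D3:**
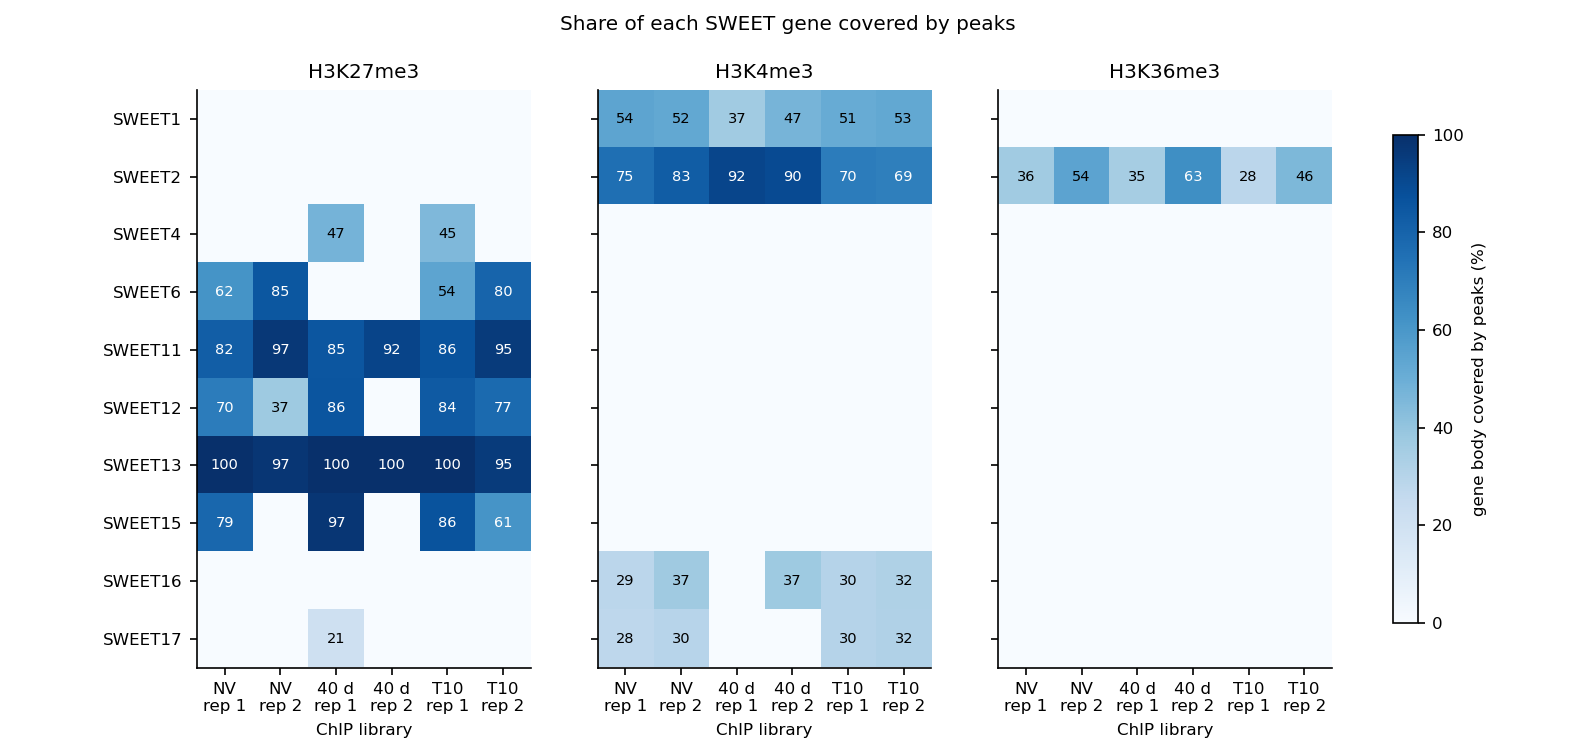
Share of each gene body covered by peaks, in percent (colour and printed value), for 10 SWEET genes (vertical axis) in 6 libraries of each of 3 marks (horizontal axis). In the sucrose branch SWEET11 and SWEET13 carry H3K27me3 in all 6 libraries, SWEET12 lacks it in the second 40 d library and SWEET15 in the second NV and 40 d libraries, and none of these genes has H3K4me3. SWEET1, SWEET2, SWEET16 and SWEET17 carry H3K4me3, which is missing over SWEET17 in both 40 d libraries and over SWEET16 in the first.

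SWEET12 and SWEET15 were covered in some libraries and not in others. Peaks of H3K27me3 covered 70.4 and 37.2% of SWEET12 at NV, 85.6 and 0% at 40 d, and 83.6 and 77.4% at T10. For SWEET15 the shares were 78.6 and 0% at NV, 97.4 and 0% at 40 d, and 86.4 and 61.1% at T10. The second libraries of NV and 40 d, where these peaks were small or missing, were the shallowest for this mark, at 3.42 and 3.86 M tags, while the other 4 held 6.01 to 15.6 M. The part of depth in the larger count of marked members at T10 was not tested.

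SWEET13 and SWEET15, also of the sucrose branch, both had their highest transcript levels late. SWEET13 had 4.60 and 2.80 normalised counts at 40 d, against 0.83 and 1.23 at NV, and the groups did not overlap. It rose by 1.87 on the log2 scale (SE 0.38, adjusted p 0.00282), with any 1 library left out as well. Against 10 d, where it had 1.07 and 0.57, the 40 d value was higher by 2.21 (SE 0.41, adjusted p 0.00555), a call lost without the shallower 10 d library (0.0785). At T10 it had 1.89 and 2.43, between the 40 d and NV values in every library. H3K27me3 covered 95.4 to 100% of SWEET13 in all 6 libraries. Its transcript thus rose in seedlings where the gene stayed covered, though not necessarily in the same cells.

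In the first T10 library the H3K27me3 peak over SWEET13 ran for 12551 bp (TAIR10, chr5:20656204-20668754) and also took in the neighbouring SWEET10. In the other 5 libraries the peak over it was 2312 to 6096 bp long.

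SWEET15, also known as SAG29 and linked to leaf senescence and seed filling, was at or near 0 in prolonged cold and highest after it. At T10 it had 1.73 and 2.25 normalised counts from 55 and 13 reads, against 0 and 0.10 at 40 d from 0 and 4 reads. For the library with 0 reads, a floor of 3 reads allows up to 0.0582 normalised counts. T10 was higher than 40 d by 5.93 on the log2 scale (SE 1.29, adjusted p 0.00582), a call lost without the deeper 40 d library (0.0545). Pooled over libraries, the T10 rate was 41.9 times that of 40 d, with a 95% interval of 15.6 to 158 that covers counting error only.

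Before and during cold, SWEET15 had 26 and 8 reads at NV (0.61 and 0.24 normalised counts), 24 and 26 at 1 h, 2 and 4 at 1 d, 0 and 2 at 10 d, and 2 and 2 at 20 d. All 8 libraries of 1 d to 40 d were below both NV libraries. At 40 d against NV it fell by 3.77 on the log2 scale (SE 1.36, adjusted p 0.0481), and with 4 reads against 34 the pooled ratio was 0.0970 (95% counting interval 0.0250 to 0.272). Only 3 of the 14 fits that left out 1 library kept this call, with adjusted p-values up to 0.323 without the deeper 40 d library and 0.184 without the deeper NV library. T10 exceeded NV by 2.16 (SE 0.69, adjusted p 0.0391), which 4 of 14 such fits kept; without the deeper or the shallower NV library it was 0.0776 and 0.129, and without the deeper or the shallower T10 library 0.184 and 0.0784. SWEET15 transcript was highest at T10 in its mean, when H3K27me3 covered 86.4 and 61.1% of the gene; the shallower 1 h library, at 1.77, lay between the T10 libraries.

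The glucose transporters SWEET1 and SWEET4 rose at different times. SWEET4, which is active in veins, had 1.32 and 1.85 normalised counts at 40 d (68 and 76 reads), against 0.07 and 0.12 at NV (3 and 4 reads). The groups did not overlap, and the pooled ratio was 17.0 (95% counting interval 8.02 to 42.9). Its log2 change was 3.91 (SE 0.87, adjusted p 0.00479), which went to 0.0502 without the deeper NV library.

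SWEET4 had 0.31 and 0.27 at 1 h, 0.55 and 0.69 at 1 d, 1.02 and 0.82 at 10 d, and 0.82 and 2.19 at 20 d. Every cold library was above both NV libraries. It rose at 10 d by 3.17 (adjusted p 0.0206), a call lost without the deeper (0.130) or shallower (0.0651) NV library or the deeper 10 d library (0.0752). It also rose at 20 d by 3.67 (adjusted p 0.00942), lost without the deeper NV library (0.0788) and in a fit of these 2 groups alone (0.0554).

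At T10, SWEET4 was back at 0.22 and 0 (7 and 0 reads), against 1.32 and 1.85 at 40 d. It fell by 3.18 on the log2 scale (SE 0.96, adjusted p 0.0309). This call was lost on leaving out the shallower 40 d library (0.0647), the deeper T10 library (0.227) or the shallower T10 library (0.0857). The shallower T10 library is the smallest of all, and 3 reads there correspond to 0.520 normalised counts. An H3K27me3 peak touched SWEET4 in the first 40 d library (47.5% of the gene) and the first T10 library (45.0%), the 2 deepest for this mark, and in no other.

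SWEET1 had 9.27 and 10.7 at 10 d, against 3.05 and 5.67 at NV, with no overlap. It rose by 1.29 on the log2 scale (SE 0.31, adjusted p 0.00842), which was lost without the deeper NV library (0.0974) or the shallower 10 d library (0.0629). At 1 h it had 2.45 and 1.43, the lowest of all groups, though not called against NV (adjusted p 0.624). At 40 d it had 5.55 and 9.35 and at T10 8.23 and 5.90, also not called against NV (0.0624 and 0.0853). H3K4me3 marked it at all 3 times, with peaks of 935 and 909 bp at NV, 634 and 815 bp at 40 d, and 881 and 911 bp at T10. The 40 d peaks were the 2 shortest.

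SWEET6, whose role is left aside here, was the 1 member that lost H3K27me3 in the cold by this definition. Peaks covered 61.6 and 85.0% of it at NV, none at 40 d, and 54.1 and 79.9% at T10. Loss at 40 d against NV was seen in 5 genes of 27444 (0.0182%), and gain at T10 against 40 d in 13 (0.0474%). The NV peaks lie at chr1:24906753-24907553 and chr1:24906569-24907246 (TAIR10), and in the 40 d libraries the nearest peaks were 731 and 478 bp away from the gene. The NV peaks were short, 801 and 678 bp, at a low fold enrichment of 2.83 and 2.42. Those nearest 40 d peaks were 774 and 600 bp long, at 2.37 and 1.85. Tags were extended to 600 bp, and signal too weak to be called is not seen. Whether a weak peak was lost or shifted was not tested. In the first T10 library the covering peak was 12488 bp long, and SWEET6 lies at its edge. At a stricter covered share of 75%, neither the loss nor the gain remained.

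The vacuolar members SWEET2, SWEET16 and SWEET17 are the ones, with SWEET1, that carry H3K4me3. H3K4me3 marked 4 of 10 members at NV and T10 (SWEET1, SWEET2, SWEET16 and SWEET17), against 62.5% and 64.6% of all genes. At 40 d it marked 2 (SWEET1 and SWEET2), against 61.4%. No H3K4me3 peak touched SWEET4, SWEET6, SWEET11, SWEET12, SWEET13 or SWEET15 in any library. For this mark a gene counted as marked where peaks covered at least 500 bp of it, or 50% of a gene shorter than 1000 bp.

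SWEET17, a fructose transporter of the vacuole membrane, lost both its H3K4me3 peak and most of its transcript at 40 d, and both were back at T10. Its RNA was at 7.43 and 6.45 normalised counts at 40 d, against 26.6 and 14.8 at NV, with no overlap. It fell by 1.52 on the log2 scale (SE 0.33, adjusted p 0.00448), also with any 1 library left out. At T10 it had 17.0 and 18.6, against 7.43 and 6.45 at 40 d, a rise of 1.33 (SE 0.37, adjusted p 0.0207). That rise was lost on leaving out either library of 40 d (deeper 0.0723, shallower 0.0918) or of T10 (deeper 0.158, shallower 0.0610).

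The H3K4me3 peak over SWEET17 lay at chr4:9032596-9033467 and chr4:9032628-9033563 (TAIR10) at NV, and at chr4:9032528-9033489 and chr4:9032535-9033540 at T10. It covered 872 and 936 bp at NV and 962 and 1006 bp at T10. Its fold enrichment was low, 2.51 and 2.55 at NV and 2.57 and 2.77 at T10. By comparison, a fold of 3.65 was at percentile 41.8 of the first NV list, and 3.22 at percentile 26.4 of the second T10 list. In the 40 d libraries no peak touched the gene and the nearest was 2430 and 2390 bp away. Signal too weak to be called as a peak is not seen here, so the loss is one of called peaks. The libraries of this mark held 27.4 and 20.1 M tags at NV, 33.8 and 23.9 M at 40 d, and 37.0 and 30.6 M at T10, and the part of depth was not tested. An H3K27me3 peak of 666 bp (chr4:9032961-9033626) stood at the same place in the first 40 d library, the deepest for that mark, and in no other library. Its fold enrichment was low, at 1.99. Over all genes, H3K4me3 was lost at 40 d against NV in 1.49% and gained at T10 against 40 d in 2.06%, and among the members SWEET17 alone did each.

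**Figure D4:**
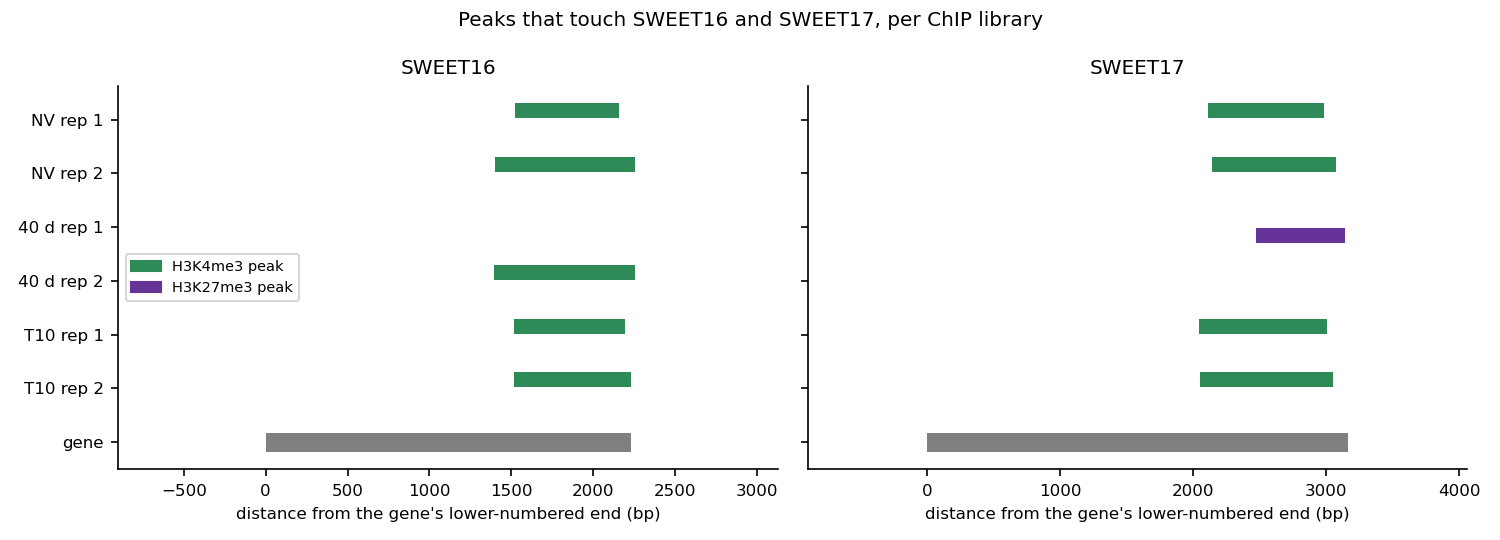
Peaks of H3K4me3 and H3K27me3 that touch SWEET16 and SWEET17 in each ChIP library (rows), by distance in bp from the lower-numbered end of the gene (grey bar). SWEET17 has H3K4me3 peaks of 872 to 1006 bp at NV and T10, none at 40 d, and a 666 bp H3K27me3 peak in the first 40 d library.

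SWEET16, a vacuolar sugar transporter close to SWEET17, was also lower at 40 d in RNA. It had 3.16 and 4.48 normalised counts at 40 d, against 21.0 and 11.5 at NV, with no overlap. It fell by 2.08 on the log2 scale (SE 0.44, adjusted p 0.00372), also with any 1 library left out. At T10 it had 9.90 and 8.84, and both libraries were above both of 40 d. The log2 change of T10 over 40 d was 1.37 (SE 0.51, adjusted p 0.0718), not called here but called when the 1 h libraries were left out (0.00776). Its H3K4me3 peak covered 635 and 826 bp at NV, 0 and 835 bp at 40 d, and 676 and 714 bp at T10, so it was missing in 1 of the 40 d libraries. The fold enrichment was 1.93 and 2.40 at NV, 2.54 in the second 40 d library, and 1.97 and 2.19 at T10.

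The decline of SWEET16 was already called at 1 d, where it had 6.83 and 5.43, against 21.0 and 11.5 at NV. It fell by 1.36 on the log2 scale (SE 0.42, adjusted p 0.0320), a call lost on leaving out the deeper NV library (0.205) or 1 of the 1 d libraries (0.109 and 0.170). At 10 d the values were 8.53 and 10.3 and the gene was not called, though it was with the 1 h libraries left out (adjusted p 0.0357). At 20 d they were 4.98 and 5.83, a fall by 1.55 (adjusted p 0.0193) that was lost on leaving out the deeper NV (0.129), deeper 20 d (0.125) or shallower 20 d (0.0830) library.

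SWEET2, a vacuolar glucose transporter best known from roots, had its highest RNA at 1 d (40.6 and 41.1) and 10 d (41.5 and 40.9). It had 24.8 and 26.6 at 20 d, 16.0 and 16.5 at 40 d, and 15.8 and 13.0 at T10. Against 10 d, the 40 d value fell by 1.34 on the log2 scale (SE 0.35, adjusted p 0.0275). This call was lost without the deeper (0.148) or the shallower (0.138) 10 d library, and without the deeper (0.169) or the shallower (0.105) 40 d library. No comparison of SWEET2 with NV, where it had 36.3 and 18.9, was called. With the 1 h libraries left out, SWEET2 was called up at 1 d (adjusted p 0.0439) and 10 d (0.0385) and down at 40 d (0.0259) and T10 (0.0359) by limma.

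SWEET2 was the member with the broadest H3K4me3 and the 1 member with H3K36me3. Its H3K4me3 peaks covered 1788 and 1958 bp at NV, 2176 and 2124 bp at 40 d, and 1669 and 1641 bp at T10. The 40 d peaks were thus the longest in both libraries, at a time when its RNA was among its lowest values. H3K36me3 peaks covered 36.4 and 54.4% of SWEET2 at NV, 34.9 and 63.3% at 40 d, and 28.4 and 45.5% at T10. Since 1 library fell short of 50% each time, H3K36me3 marked 0 of 10 members at NV, 40 d and T10, against 37.9%, 37% and 33.7% of all genes; a covered share of at least 25% in both libraries was reached by SWEET2 alone.

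**Figure D5:**
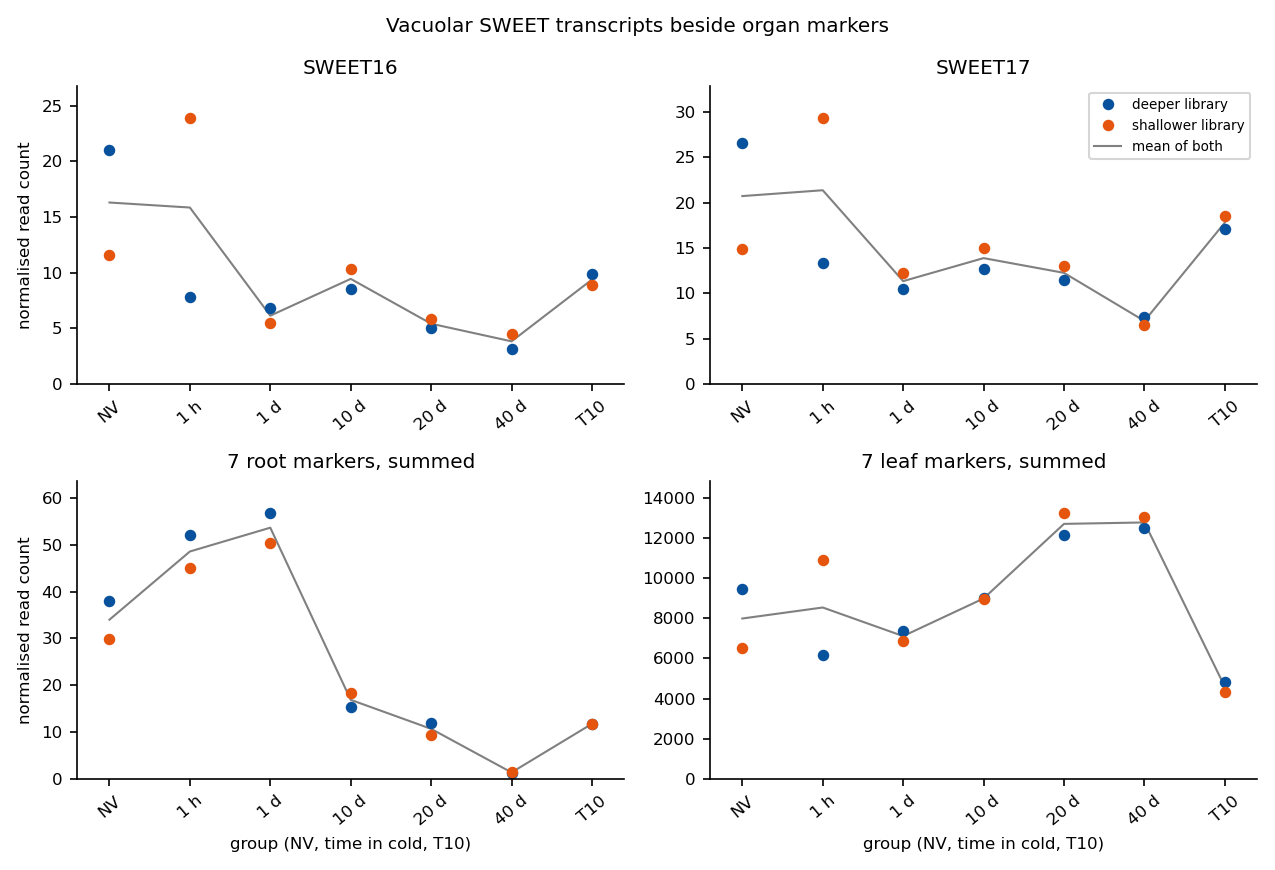
Normalised read counts of SWEET16 and SWEET17 (top) and summed counts of 7 root and 7 leaf markers (bottom) in each library of the 7 RNA groups. All 4 vertical axes start at 0; SWEET16, SWEET17 and the root markers are lowest at 40 d, and at T10 the root sum is 11.7 and 11.8.

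Organ markers moved beside the vacuolar members. The 7 root markers summed to 1.20 and 1.49 at 40 d, against 38.1 and 29.9 at NV, and 7 of 7 fell, beside 18.3% of all genes. At T10 against 40 d, 6 of 7 rose, beside 13.3% of all genes. Root sums were 56.9 and 50.5 at 1 d, above NV, when SWEET16 was lower than at NV and SWEET2 had 40.6 and 41.1. At 10 d they were 15.4 and 18.3, when SWEET2 had 41.5 and 40.9. The part of root tissue in the changes of SWEET2, SWEET16 and SWEET17 was not tested. Of 8 leaf markers, 7 split uniquely into reads and could be summed. Their sums were 9479 and 6509 at NV, 12500 and 13074 at 40 d, and 4848 and 4327 at T10. These leaf markers did not move together: 2 of 7 rose and 3 fell at 40 d against NV, beside 16.5% and 18.3% of all genes. At T10 against 40 d, 2 rose and 3 fell, beside 13.3% and 10.1% of all genes. CAB2 averaged 5601 at 40 d, against 1573 at NV, while RBCS3B averaged 37.8 at 40 d, against 809 at NV.

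At NV and 1 h the 3 vacuolar members varied more within a group than between the groups. SWEET2 had 15.0 and 38.5 at 1 h, against 36.3 and 18.9 at NV. SWEET16 had 7.79 and 23.9 at 1 h, against 21.0 and 11.5 at NV, and SWEET17 had 13.4 and 29.3 at 1 h, against 26.6 and 14.8 at NV. The deeper NV and the shallower 1 h library were the high ones in each case. The leaf marker sum split the same way, at 6159 and 10927 at 1 h, against 9479 and 6509 at NV.

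Among other genes of sugar transport, members of 3 lists were called at 40 d, beside 16.5% of all genes up and 18.3% down. The lists were chosen with earlier results of these data known, so their counts are a description and show no excess over those shares. Of 9 sucrose symporter genes 5 were tested, and 2 fell at 40 d while the other 3 were not called, which is too few to read against those shares. SUC5 averaged 0.0510 at 40 d, against 1.66 at NV (log2 change -4.82, adjusted p 0.000725), and SUT2 averaged 12.0 at 40 d, against 25.6 at NV (-1.04, adjusted p 0.0132). Of 22 monosaccharide and vacuolar transporters 13 were tested, with 3 up and 7 down at 40 d, beside the same 16.5% and 18.3% of all genes. TMT2, which loads sugar into the vacuole, averaged 70.3 at 40 d, against 21.0 at NV (1.74), and ERDL6, which exports glucose from it, averaged 14.6 at 40 d, against 95.7 at NV (-2.65).

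Of 17 genes of sucrose synthesis and cleavage 15 were tested, with 6 up and 4 down at 40 d, beside 16.5% and 18.3% of all genes. The sucrose synthases SUS4, SUS1 and SUS3 rose by 3.34, 2.78 and 2.61 on the log2 scale, with SUS1 at 106 at 40 d, against 15.4 at NV. The vacuolar invertase gene AT1G62660 fell by 2.78, to 14.2 at 40 d against 98.2 at NV, and the neutral invertase CINV1 fell by 1.96. At T10 against NV, ATSPS4F, a sucrose phosphate synthase, rose by 3.69 (118 at T10, against 10.2 at NV) and TMT2 stayed up by 1.33 (adjusted p 0.000209). The median log2 change at 40 d was -0.38 for the sucrose genes and -0.82 for the monosaccharide and vacuolar list, beside -0.0017 over all genes. Since the lists were chosen with earlier results of these data known, these counts and medians are a description only.

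For each member whose group means averaged at least 5 and spanned at least 1 on log2(value + 1), the genes with the most similar course over the 7 group means were sought among 5736 genes. The closest to SWEET12 was BAS1 (Pearson r 0.980), to SWEET16 AT1G22550 (0.989) and to SWEET17 DFL1 (0.981). For SWEET2 it was AT4G15160 (0.988) and for SWEET1 FUS9 (0.969). PCK2 and PYL4 came next for SWEET16 (0.986 and 0.985), RMA1 and RUP1 for SWEET17 (0.976 and 0.974), AGP31 and PPa4 for SWEET2 (0.982 and 0.979), AT3G11760 and AT4G02715 for SWEET12 (0.973 and 0.972), and HAB1 and AT2G25320 for SWEET1 (0.967 and 0.966). These points share libraries, and with 7 of them the values describe likeness of course and no more.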

How the data were processed

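Members and gene lists were chosen with earlier results of these data known. The authors deposited RNA values as a signal, normalised read counts averaged over 2 replicates. Per the submitters' processing notes, TopHat, edgeR and Bowtie2 were used with the build TAIR10; versions and settings are not given in the sources used here. Ribosomal RNA was removed and stranded libraries were built, per the labels; whether counting used strand is not given in the sources used here. Each average is a sum of whole multiples of 2 steps, 1 per library, and 18766 of 18779 genes split uniquely into reads (relative tolerance 1e-12), and 13 were left out. Those 13 held a large part of the signal, which differed between groups. Deposited values, in reads per M of effective library size, summed to 1.24 M at NV and 0.823 M at 40 d. The split genes held 19.1 and 11.8 M reads at NV, for effective sizes of 42.3 and 34.0 M. At 40 d they held 19.9 and 15.6 M, for 51.5 and 41.1 M. Reads were tested with limma 3.58.1 (voom, effective library sizes behind the deposited scaling, all 14 libraries, two-sided, Benjamini-Hochberg adjustment). Both steps were tested on simulated data. Log2 ratios of deposited means used a pseudocount of 1.

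Peaks come from MACS 2.1.1.20160309, run by the authors library by library with the input of that time point as control, per the file headers, with tags extended to 600 bp and a q-value limit of 5.00e-02. The deposited peak files give 1-based positions, pileup signal, fold enrichment as a ratio, and −log10 of the p-value and of the q-value. H3K27me3 libraries held 3.42 to 15.6, H3K4me3 20.1 to 37.0 and H3K36me3 8.49 to 23.3 M filtered tags (M, 1000000). Peaks were laid over genes of the RefSeq table of assembly TAIR10.1, whose frame matched within 100 bp in 39 windows. That table gives no strand or coding length, so levels were divided by gene length and H3K4me3 was measured over the gene in place of the planned coding length and first 1000 bp. A member's mark was lost or gained where both libraries of one group and neither of the other were marked. Such losses and gains concern called peaks, and signal below the calling limit is not seen. All 10 members are named; of the sugar lists, up to the 3 largest called rises and falls per list and comparison at 40 d and T10 against NV; like-course genes are the 3 with the highest r. Alternatives changed the pseudocount, scaling, weights, read filter, libraries in the fit, covered share, q limit and H3K4me3 feature. Intervals on read ratios and floors of 3 reads cover counting error only. No sequences are shown, since no sequence table was used here.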

Additional observations from a re-analysis of the deposited data

Results flagged for a closer look

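SWEET15 moved in opposite directions in the cold and after the return. Against NV it was lower at 40 d (log2 change -3.77, adjusted p 0.0481) and higher at T10 (2.16, adjusted p 0.0391), and the difference between T10 and 40 d, tested directly with limma, was 5.93 (SE 1.29, adjusted p 0.00582). The reads behind it were 26 and 8 at NV, 0 and 4 at 40 d, and 55 and 13 at T10. Both comparisons with NV share the NV libraries. Of 14 fits that left out 1 library, 3 kept the call at 40 d and 4 that at T10. Both calls were lost by limma without weights (adjusted p 0.0574 and 0.195) and in fits of the 2 groups alone (0.0934 and 0.0655). Without the deeper 40 d library the difference was 4.07 with an adjusted p of 0.0545.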

How the results depend on the processing

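With 2 libraries a group, most single calls were lost on leaving out 1 of the libraries; SWEET12 at 10 d, SWEET13, SWEET16 and SWEET17 at 40 d, and SWEET12 at 40 d against 10 d kept theirs in all 14 fits that left 1 out. No called result reversed its direction under the alternatives tried. The following member counts moved by over 1.5 times. Without weights, limma called 1 up at 1 d and 0 up at T10 against NV. Of all 18766 genes, that fit called 1760 and 2414 up. With library sizes from the recovered reads there were 2 down at 1 d, 1 up and 1 down at 20 d, and 4 down at 40 d against 10 d. Among all genes that fit called 2016 down at 1 d, 2156 up and 2297 down at 20 d, and 868 down at 40 d against 10 d. In fits of the 2 groups alone there were 0 up and 1 down at 20 d, 0 up at T10 against NV, 2 down at T10 against 40 d, and 2 up and 4 down at 40 d against 10 d. Among all genes these fits called 1591 up and 1873 down at 20 d, 1293 up at T10 against NV and 2367 down at T10 against 40 d. At 40 d against 10 d they called 2785 genes up and 2864 down, beside 905 and 1089 in the main fit. Member counts are too few to read against these. With the 1 h libraries left out, chosen after seeing the data, there were 1 up and 2 down at 1 d, 3 down at 10 d, 1 down at T10 against NV, 2 down at T10 against 40 d, and 2 up and 4 down at 40 d against 10 d. Shares of all genes in that fit were 17.4% up and 16.3% down at 1 d and 18.4% down at 10 d. They were 15.2% down at T10 against NV, 13.4% down at T10 against 40 d, and 8.34% up and 9.18% down at 40 d against 10 d. Smaller shifts also occurred. SWEET15 was no longer called at 40 d without weights or in the 2-group fit, so that 2 were down. SWEET16 was called up at T10 against 40 d, making 3 up, without weights (0.0420), with recovered library sizes (0.0388), in the 2-group fit (0.00373) and without the 1 h libraries (0.00776). The last also gave 4 up at 10 d, 3 down at 20 d, and 3 up and 4 down at 40 d. Its shares of all genes there were 17.0% up, 18.4% down, and 20.0% up and 22.3% down. A filter of 10 reads in 2 libraries changed no single-gene call.

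Leaving out 1 library at a time gave 0 to 2 up and 0 to 2 down at 1 d, 0 to 3 down at 10 d, 0 to 3 up and 0 to 3 down at 20 d, and 1 to 4 up at 40 d. It gave 0 to 1 up and 0 to 1 down at T10 against NV, 0 to 3 up and 0 to 2 down at T10 against 40 d, and 0 to 2 up and 1 to 4 down at 40 d against 10 d. Of 72 log2 ratios of deposited means, 20 moved beyond the replicate spread with a pseudocount of 0.1 and 23 with 5, and rescaling to a median ratio moved none.

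At a covered share of 75%, H3K27me3 marked 3 members at T10, with 0 lost at 40 d against NV, 1 gained at T10 against NV and 0 gained at T10 against 40 d; H3K4me3 marked 1 at 40 d. Over the gene body with 500 bp on each side, H3K4me3 marked 1 member at NV, 1 at 40 d and 0 at T10, with 0 lost at 40 d against NV, 0 gained at T10 against 40 d, and 1 lost at T10 against NV and against 40 d. H3K36me3 marked 1 member at NV, 40 d and T10 with a share of 25% or any overlap. With 1 replicate per group, H3K27me3 marked 3 to 5 at NV and 2 to 4 at 40 d, with 0 to 2 gained at T10 against NV and 1 to 3 against 40 d; H3K4me3 had 1 to 2 lost at 40 d and 1 to 2 gained at T10 against 40 d. H3K36me3 then marked 0 to 1 at NV and at 40 d, with 0 to 1 lost at T10 against NV and against 40 d. SWEET11 was highest at NV, 40 d and T10 with or without division by length. No paired analysis was possible because the RNA table carries no replicate numbers and the peak results come from no test.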
